A study of Drosophila melanogaster with 16 samples.

Results

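The mitochondrial ribosomal protein (mRp) genes are the nuclear genes whose FlyBase symbol begins with mRpL or mRpS. They were found by matching the gene identifiers of the count tables to symbols, which gave 72 of the 17698 genes counted, 47 named for the large ribosomal subunit (mRpL) and 25 for the small subunit (mRpS). A further mRp symbol of the annotation, mRpS5, has an identifier that matched no row and was not analysed here. The genes lie on every large chromosome arm, with 12 on 2L, 12 on 2R, 16 on 3L, 21 on 3R and 11 on X, and their exons sum to between 327 and 2078 bases (median 783). They were compared across 4 genotypes of Drosophila larval CNS, which all carried the pan-neuronal driver nsybGal4, so that any transgene was expressed in neurons while the RNA came from the whole CNS. The control carried the driver alone (nsybGal4/+). The other genotypes added UAS-TFAM3M (TFAM overexpression), UAS-TFAM3M with UAS-ATF4 RNAi (TFAM overexpression with ATF4 RNAi) or UAS-ATF4-HA (ATF4 overexpression). Each genotype had 4 replicates, each a pool of 20 CNSs from wandering larvae of the last instar kept at 25 °C. Pooling reduces differences between single animals before sequencing.

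Mitochondria carry their own small genome, which encodes a few subunits of the respiratory chain, and they translate its messages on ribosomes of their own. The RNAs of these ribosomes are made inside the mitochondrion, whereas all of their proteins are encoded in the nucleus, made in the cytosol and imported. The mitochondrial ribosome descends from that of bacteria, and its proteins fall into those with a bacterial counterpart and those found only in mitochondria. TFAM packages mitochondrial DNA and acts in its transcription, and its overexpression in neurons was used in the study to stress mitochondria. ATF4, encoded by crc in Drosophila, is a transcription factor of the response to such stress. The comparisons therefore ask whether the nuclear genes for the mitochondrial ribosome differed when mitochondria were stressed, and when ATF4 was knocked down or overexpressed.

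The 16 libraries held between 18215062 and 24778270 counts. TFAM RNA lay between 70.2 and 139 CPM (counts scaled to library size) in control and between 396 and 682 CPM in TFAM overexpression, and between 399 and 669 CPM with ATF4 RNAi added. For crc the CPM lay between 188 and 227 in control, between 169 and 242 in TFAM overexpression and between 148 and 165 with ATF4 RNAi added. It lay between 177 and 189 in the libraries labelled ATF4 overexpression, which thus showed no higher crc than control (edgeR log2 fold change -0.15 with a standard error, SE, of 0.10 and an adjusted p = 0.530). All 4 neuronal markers examined (elav, nSyb, brp and Syt1) were detected in every library, with a summed level from 1205 to 2362 CPM in control and from 1697 to 2593 CPM across the other genotypes. Control replicate 3 stood apart, as described below. Median fold changes over the mRp genes that rest on it are given with and without it, whereas levels in control include it. In whole CNS, fewer cells of a type and less RNA per cell cannot be told apart.

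Of the 72 genes, 71 were detected in every library, with between 103 and 2369 counts each. The exception was mRpL53 (FBgn0050481, dm6 2R from 13954195 to 13955664), which had 0 counts in all 16 libraries. A count of 0 allows up to 3 counts, or between 0.119 and 0.177 CPM depending on the library. All 829 exon bases of mRpL53 lie within exons of CG33155 on the same strand, where featureCounts at its default setting assigns a read to neither gene, so the 0 cannot be read as absence of expression. CG33155 itself lay between 0.542 and 2.95 CPM. Exons of 43 mRp genes overlap those of another gene, but only 10 share over 10% of their exon bases, mRpL53 among them. The overlap is largest after mRpL53 for mRpS24 (55.3%, with TBC1d7 on the opposite strand) and mRpS21 (48.0%, with CG8870 on the opposite strand). Counts of these genes may include or lose reads of the partner, since the strand setting of the counting is not given in the sources used here.

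Levels were compared between genes as CPM per kb of exon, so that long and short genes could be set side by side. In control the mean level of the 71 genes was between 15.3 and 123 CPM per kb with a median of 41.7, and the middle 50% of genes lay between 37.2 and 56.7. Large-subunit genes had a median of 46.6 CPM per kb (n = 46) and small-subunit genes 39.6 (n = 25). The medians were 39.6 for genes whose number marks a bacterial counterpart (n = 41) and 44.9 for the mitochondria-specific ones (n = 30). The quartiles of these groups overlap, and no test was made between them. The grouping follows the symbols, which in mammals do not always match the place of the protein in the ribosome: the mammalian proteins named after S18A and S30 sit in the large subunit, and those named after S24 and L47 correspond to bacterial proteins.

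The highest level was that of mRpL30 (FBgn0029718, X from 4647871 to 4648646), the counterpart of a bacterial large-subunit protein. Its control libraries had 56.6, 68.1, 140 and 78.3 CPM, which is 123 ± 53.3 CPM per kb (SD, n = 4). The next large-subunit genes were mRpL36 (77.1 ± 53.8 CPM per kb) and mRpL33 (75.2 ± 38.3 CPM per kb), both small proteins with bacterial counterparts. In the small subunit the highest were mRpS18A (78.2 ± 49.0 CPM per kb), 1 of 3 fly genes related to the bacterial protein S18, mRpS7 (66.5 ± 17.0 CPM per kb) and mRpS26 (59.8 ± 40 CPM per kb). Neighbours in the order of all 71 genes differed by less than the larger of their SDs. The order also rests in part on control replicate 3. mRpS18A had 87.5 CPM in that library and 24.5, 33.1 and 36.6 CPM in the other controls, whereas mRpS7 had 83 CPM against 46.7, 54.6 and 59.5 CPM. The order without that library is not given here.

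At the low end were mRpS24 (15.3 ± 9.67 CPM per kb), the gene with the large overlap on the opposite strand, mRpL21 (27.2 ± 19.1 CPM per kb), mRpS29 (28.3 ± 3.92 CPM per kb), mRpL1 (28.8 ± 8.60 CPM per kb), mRpS9 (29.4 ± 2.76 CPM per kb) and mRpL11 (30.7 ± 13.1 CPM per kb). The bacterial relatives of mRpL1 and mRpL11 form mobile elements of the large subunit that contact tRNAs and translation factors, and the mammalian relative of mRpS29 is the GTP-binding protein DAP3. mRpS9 shares 25.1% of its exon bases with ArgRS-m, the mitochondrial arginyl-tRNA synthetase gene, on the opposite strand. The SD of a gene relative to its mean differed widely along the order, being lowest for mRpL19 (3.33 of 38.9 CPM per kb) and highest for mRpS21 (34.1 of 37.6 CPM per kb).

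**Figure D1:**
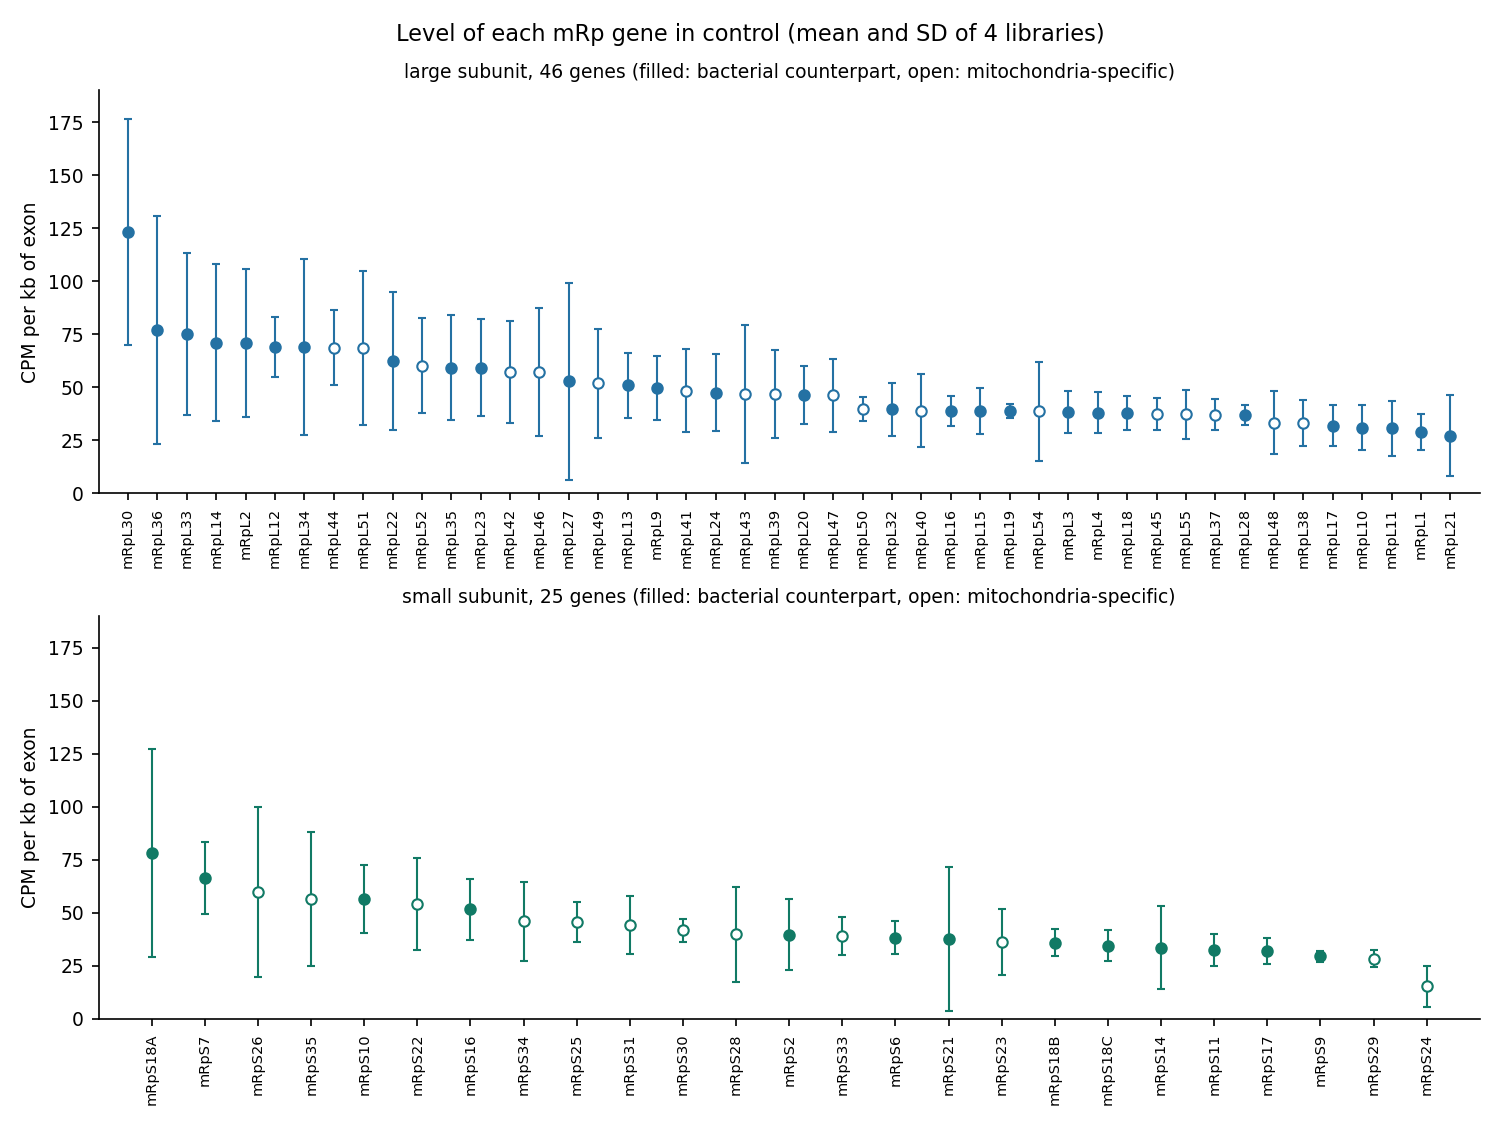
Mean level of each of 71 mRp genes in control, in CPM per kb of exon, with bars for the SD of 4 libraries, for the large subunit (top) and the small subunit (bottom). Filled symbols are genes whose number marks a bacterial counterpart and open symbols mitochondria-specific ones. mRpL30 lies highest at 123 CPM per kb and mRpS24 lowest at 15.3.

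The mRp genes rose and fell together from library to library, and this was the largest pattern in their counts. Their share of all counts was 0.200%, 0.227%, 0.400% and 0.270% in the control libraries and 0.203%, 0.306%, 0.220% and 0.208% in TFAM overexpression. It was 0.211%, 0.245%, 0.278% and 0.315% with ATF4 RNAi added and 0.191%, 0.240%, 0.205% and 0.239% in the libraries labelled ATF4 overexpression. Every genotype thus had libraries near 0.2%, and the ranges of the 4 genotypes overlapped. The means were 0.274% ± 0.0884, 0.234% ± 0.0483, 0.262% ± 0.0446 and 0.219% ± 0.0247 in the same order (SD, n = 4). The exact (Clopper-Pearson) 95% interval of a library's share was never wider than from 0.397% to 0.402%, that of control replicate 3, and covers counting error only.

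The share moved with a property of the whole library. The gene length slope is the change in a gene's log2 CPM, relative to its mean over the libraries, per doubling of exon length, and a negative slope marks a library in which short genes hold more of the counts. The slope was between -0.424 (control replicate 3) and 0.160. The 5 libraries with a slope below 0 had mRp shares of 0.270% and above, and the other 11 had 0.245% or less. The slope is computed from the same counts as the share, and most mRp genes are short. What sets the slope was not tested, and no batch is named in the labels.

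**Figure D2:**
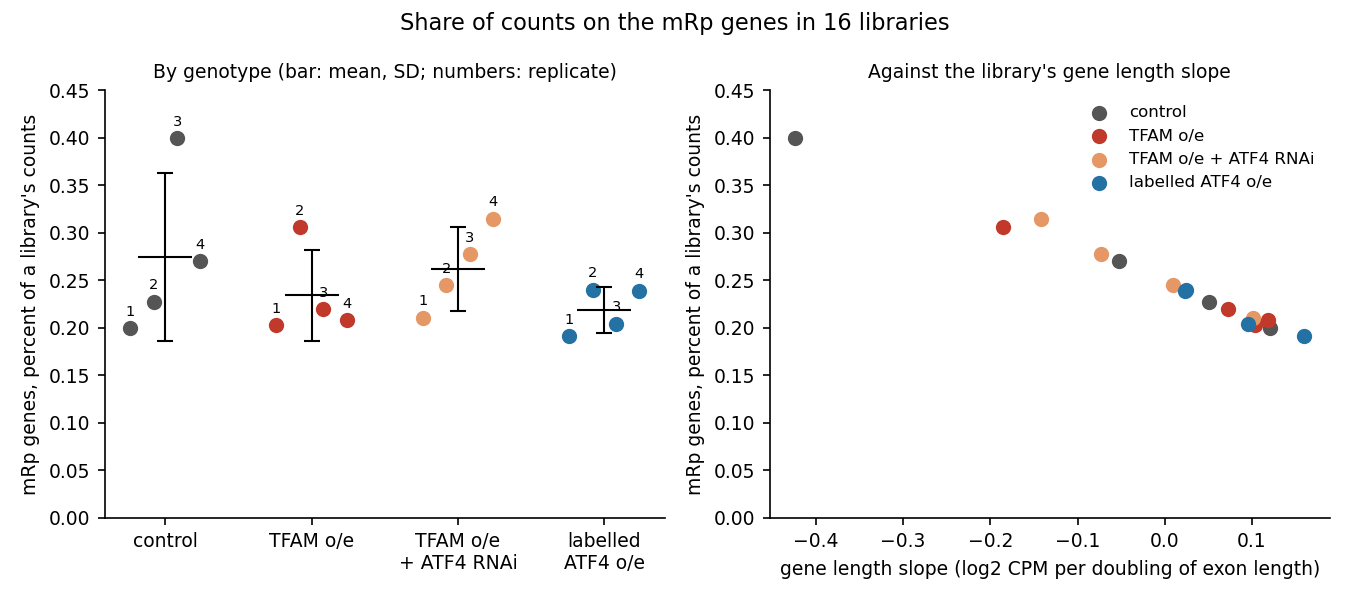
Share of a library's counts on the mRp genes, in percent, by genotype (left; points are libraries with their replicate number, bars mean and SD of 4) and against the gene length slope of the library (right). Control replicate 3, at 0.400% and a slope of -0.424, lies apart, and the 5 libraries with a slope below 0 have the 5 highest shares.

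Gene by gene, 66 of 71 mRp genes had their highest level of the 16 libraries in control replicate 3, and 69 of 71 were higher there than in every other control. Relative to the mean of the other controls the level in control replicate 3 was 1.88-fold at the median, and ranged from 0.913-fold (mRpS30) to 4.29-fold (mRpS21). In TFAM overexpression replicate 2, 70 of 71 were higher than in every other library of that genotype, 1.53-fold at the median. The size of the swing was a trait of the gene: over the 71 genes, the log2 swing of control replicate 3 correlated with that of TFAM overexpression replicate 2 at r = 0.934 and with that of replicate 4 of the ATF4 RNAi genotype at r = 0.870, as a description over genes that share these libraries.

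Markers of cell types differed in level between libraries too. The summed neuronal markers were lowest of all libraries in control replicate 3, at 1205 CPM. So were the summed markers of neuroblasts (dpn, ase and mira), at 286 CPM, and of hemocytes (Hml, NimC1 and Pxn), at 32.3 CPM. Within these sets ase, mira and Pxn were at their lowest of all libraries there (66.5, 208 and 28.7 CPM). The others, dpn, Hml and NimC1, were not (11.9, 2.06 and 1.47 CPM). Glial markers did not move together there either: repo was at its lowest of all libraries, 108 CPM, and wrapper at its highest, 365 CPM. The 3 fat body markers (Lsp1beta, Lsp2 and Fbp1) summed to between 71.2 and 336 CPM in control, between 42.4 and 69.4 CPM in TFAM overexpression, between 31.4 and 103 CPM with ATF4 RNAi added and between 44.0 and 168 CPM in libraries labelled ATF4 overexpression. Of these, Lsp1beta, a larval storage protein of the fat body, was called lower in TFAM overexpression than in control (-1.96 on the log2 scale, SE 0.27, adjusted p = 0.0222 with edgeR). The 3 ring gland markers (phm, dib and sad) summed to between 2.00 and 86.0 CPM in control and between 1.75 and 26.8 CPM in TFAM overexpression. They summed to at most 20.6 CPM with ATF4 RNAi added and 25.4 CPM in libraries labelled ATF4 overexpression. The highest fat body and ring gland sums of all libraries, 336 and 86.0 CPM, were both those of control replicate 3. Fbp1 was at 268 CPM there and phm at 46.7 CPM, whereas Lsp1beta, at 49 CPM, was higher in control replicate 1 (75.7 CPM). The part of these cells in the mRp levels was not tested.

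mRpS21 (FBgn0044511, 3R from 13381276 to 13381809), the counterpart of a bacterial small-subunit protein, varied most within genotypes (SD of log2 CPM 0.759). It had 7.75, 9.98, 42.1 and 11.7 CPM in control, 8.26, 24.1, 8.11 and 6.77 CPM in TFAM overexpression, 8.48, 14.3, 14.6 and 21 CPM with ATF4 RNAi added, and 7.68, 10.8, 10.7 and 14.2 CPM in libraries labelled ATF4 overexpression. The genotypes overlapped, and 1 library of control and 1 of TFAM overexpression stood above all others. mRpL27 (FBgn0053002, 2L from 4458595 to 4459638), whose bacterial relative lies close to the peptidyl transferase center, behaved in the same way with no exon overlap. Its control libraries had 21.6, 28.9, 114 and 32.6 CPM and its TFAM overexpression libraries 19.6, 58.9, 24.8 and 20.1 CPM.

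At the other extreme was mRpS30 (FBgn0030692, X from 15786047 to 15788288), the mRp gene with the longest exons (2078 bases) and the smallest spread (SD of log2 CPM 0.108). It had 79.3, 83.2, 80.8 and 103 CPM in control and 80.2, 83.1, 77.6 and 83.1 CPM in TFAM overexpression. It also had 80.2, 79.7, 89.3 and 83.0 CPM with ATF4 RNAi added and 69.5, 81.0, 75.6 and 75 CPM in libraries labelled ATF4 overexpression, so that control replicate 3 was not among its high libraries. Exon length alone did not give the order of the swings. The correlation of log2 swing with log2 exon length was r = -0.329 over the 71 genes, and the median swing was 1.6-fold for the 21 genes of at least 1000 bases and 1.99-fold for the 50 shorter ones. mRpL21, with 1696 exon bases, had a swing of 3.17-fold.

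**Figure D3:**
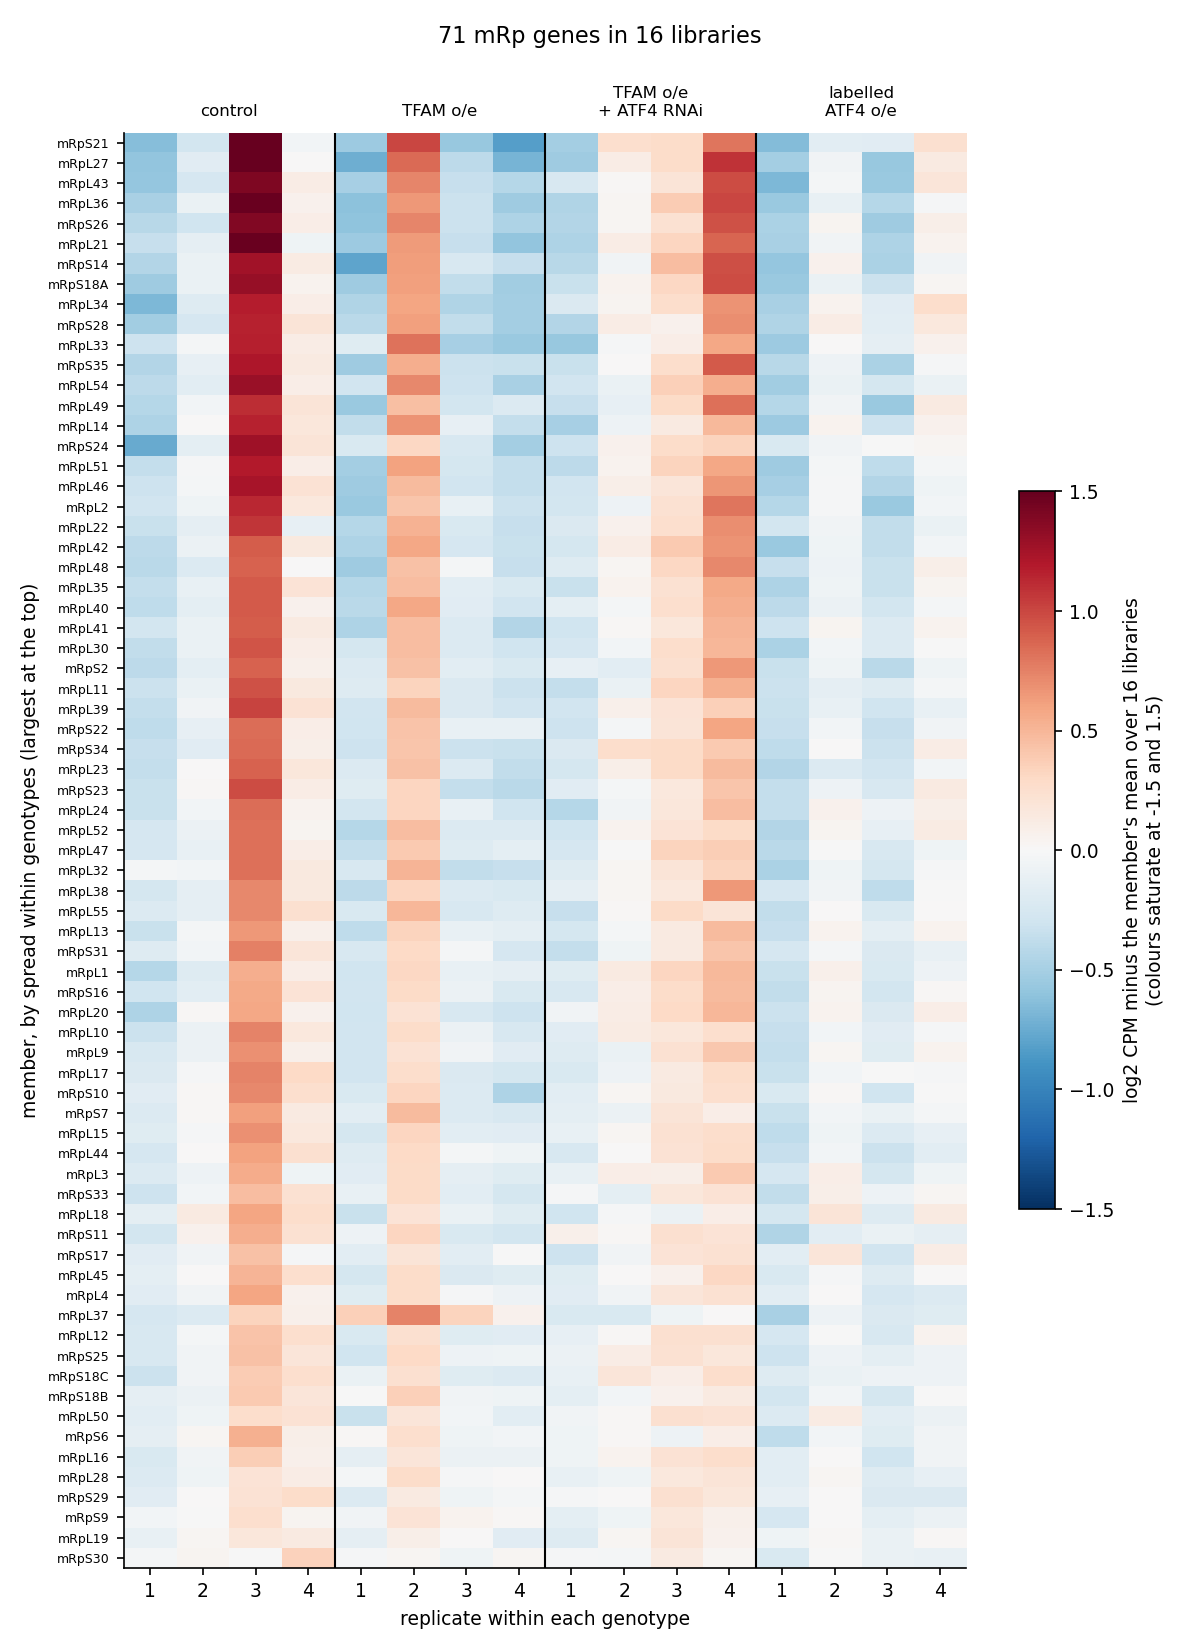
Log2 CPM of 71 mRp genes in 16 libraries, each as the difference from the gene's mean over all libraries, with genes ordered by their spread within genotypes (largest at the top). Control replicate 3, TFAM overexpression replicate 2 and replicate 4 of the ATF4 RNAi genotype are high for nearly all genes. mRpL37 is highest in TFAM overexpression replicates 1, 2 and 3 (64.2, 83.7 and 63.4 CPM), with control replicate 3 close below (62.9 CPM). TFAM overexpression replicate 4 (52.5 CPM) lies within the range of the controls.

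Between control and TFAM overexpression, no mRp gene passed the test. The genes were slightly lower in TFAM overexpression as a group, with 69 of 71 having a negative log2 fold change and a median of -0.28 beside -0.01 for all genes tested. With edgeR's quasi-likelihood test, calling genes that differed 1.2-fold or more with a p adjusted by Benjamini-Hochberg below 0.05, 0 of 71 were called, against a background of 0.299% of 9355 genes tested. At an unadjusted p under 0.05 the number was also 0 (background 4.34%), and DESeq2 called 0 (background 1.04%). The 2 lowest were mRpL27 (log2 fold change -0.70, SE 0.57, adjusted p = 0.880) and mRpS21 (-0.62, SE 0.61, adjusted p = 0.880), the 2 genes with the largest library swings. The 2 highest were mRpL37 (0.37, described below) and mRpL28 (0.03, SE 0.12).

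The shift of the group rested on control replicate 3. Without that library the median over the 71 genes was 0.02, with 45 higher and 26 lower, beside 0.01 for all genes. Without TFAM overexpression replicate 2 it was -0.42. When each library's trend over gene length was taken out by an offset, the median was -0.08, and 1 gene, mRpL37, was called, against a background of 0.588%. The median was -0.28 for large-subunit and -0.21 for small-subunit genes, and -0.27 for genes with a bacterial counterpart and -0.28 for mitochondria-specific ones. With the trend taken out these were -0.09, -0.05, -0.06 and -0.11, and differences between the groups were not tested.

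Between control and libraries labelled ATF4 overexpression, all 71 mRp genes had a negative log2 fold change, with a median of -0.36 beside -0.02 for all genes, and again 0 were called (background 0.765%). DESeq2 called 0 (background 1.7%). At an unadjusted p under 0.05, 2 of 71 genes were lower, a smaller share than the 5.98% of all genes tested. One was mRpL44 (log2 fold change -0.40, SE 0.17, adjusted p = 0.530), a mitochondria-specific protein with an RNase III-like fold in mammals. It had 57.0, 68.1, 103 and 79.8 CPM in control and, where ATF4 overexpression was the label, 53.2, 65.9, 54.4 and 61.0 CPM, which overlap. The other was mRpL32 (-0.47, SE 0.20, adjusted p = 0.530), with 22.6, 22.5, 40.9 and 25.6 CPM in control and 16.6, 22.1, 19.2 and 22.7 CPM in the libraries with the ATF4 overexpression label.

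The lowest fold changes in this comparison were those of mRpL27 (-0.82, SE 0.49) and mRpL36 (-0.72, SE 0.39), and the least negative those of mRpL19 (-0.09, SE 0.09) and mRpS17 (-0.09, SE 0.16). Without control replicate 3 the median was -0.09, with 15 of 71 genes higher and 56 lower. With the gene length trend removed it was -0.10 and 0 genes were called (background 1.64%).

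Adding ATF4 RNAi to TFAM overexpression gave the opposite sign for nearly all genes. The log2 fold change was positive for 66 of 71, with a median of 0.18 beside 0.00 for all genes, and 0 were called by edgeR (background 0.551%). At an unadjusted p under 0.05, 1 of 71 was higher (background 2.49%) and 1 was lower (background 3.32%), neither share above that of all genes. The higher one was mRpL20 (0.36, SE 0.15, adjusted p = 0.757), whose bacterial relative is needed early in the assembly of the large subunit. It had 21.2, 30.4, 22.1 and 21 CPM in TFAM overexpression and 25.2, 28.2, 32.0 and 36.9 CPM with ATF4 RNAi added, which overlap through TFAM overexpression replicate 2. The lower one was mRpL37, which DESeq2 called as well (1 of 71, background 1.37%).

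The largest fold changes belonged to mRpS18A (0.44, SE 0.31) and mRpL36 (0.43, SE 0.34), 2 further genes with large swings between libraries. At the other end, next to mRpL37, was mRpS18B (-0.07, SE 0.11). Without TFAM overexpression replicate 2 the median was 0.35, with 69 of 71 higher. With the gene length trend removed it was 0.06, and mRpL37 was the single gene called (background 0.922%). The comparisons with TFAM overexpression share its 4 libraries, and the 3 comparisons with control share those of the control.

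Between control and TFAM overexpression with ATF4 RNAi, 62 of 71 mRp genes had a negative log2 fold change, with a median of -0.11 beside -0.02 for all genes. edgeR called 0 (background 0.563%), 0 had an unadjusted p under 0.05 (background 4.7%), and DESeq2 called 0 (background 1.08%). The lowest were mRpL18 (-0.33, SE 0.16) and mRpL14 (-0.32, SE 0.34), which bridges the subunits in bacterial ribosomes, and the highest mRpL1 (0.13, SE 0.22) and mRpL20 (0.11, SE 0.21). Leaving out control replicate 3 turned the sign of the group, with a median of 0.17 and 62 of 71 higher. With the gene length trend removed the median was -0.02 and 0 genes were called (background 0.934%).

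Genes of 2 other complexes had medians close to those of the mRp genes in the same comparisons. The 83 of 86 cytosolic ribosomal protein genes tested (82 in the comparison within TFAM overexpression) had median log2 fold changes of -0.31, -0.38, 0.20 and -0.11 in the order of the comparisons above, and the 32 of 40 genes of respiratory complex I tested had -0.29, -0.38, 0.16 and -0.10. None of either set was called in any of the 4 comparisons. The 28 of 40 genes of respiratory complexes III to V tested between control and TFAM overexpression had a median of -0.21 (from -0.51 to 1.46), and 0 were called. The number of genes whose 4 libraries in 1 genotype did not overlap the 4 of the other was 0, 0, 1 and 0 of 71 mRp genes, where all genes tested gave 3.46%, 6.93%, 4.15% and 3.59%. The SD of log2 CPM within genotypes ran from 0.108 (mRpS30) to 0.759 (mRpS21). Differences of the size of the medians could not be resolved for single mRp genes of wide spread.

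**Figure D4:**
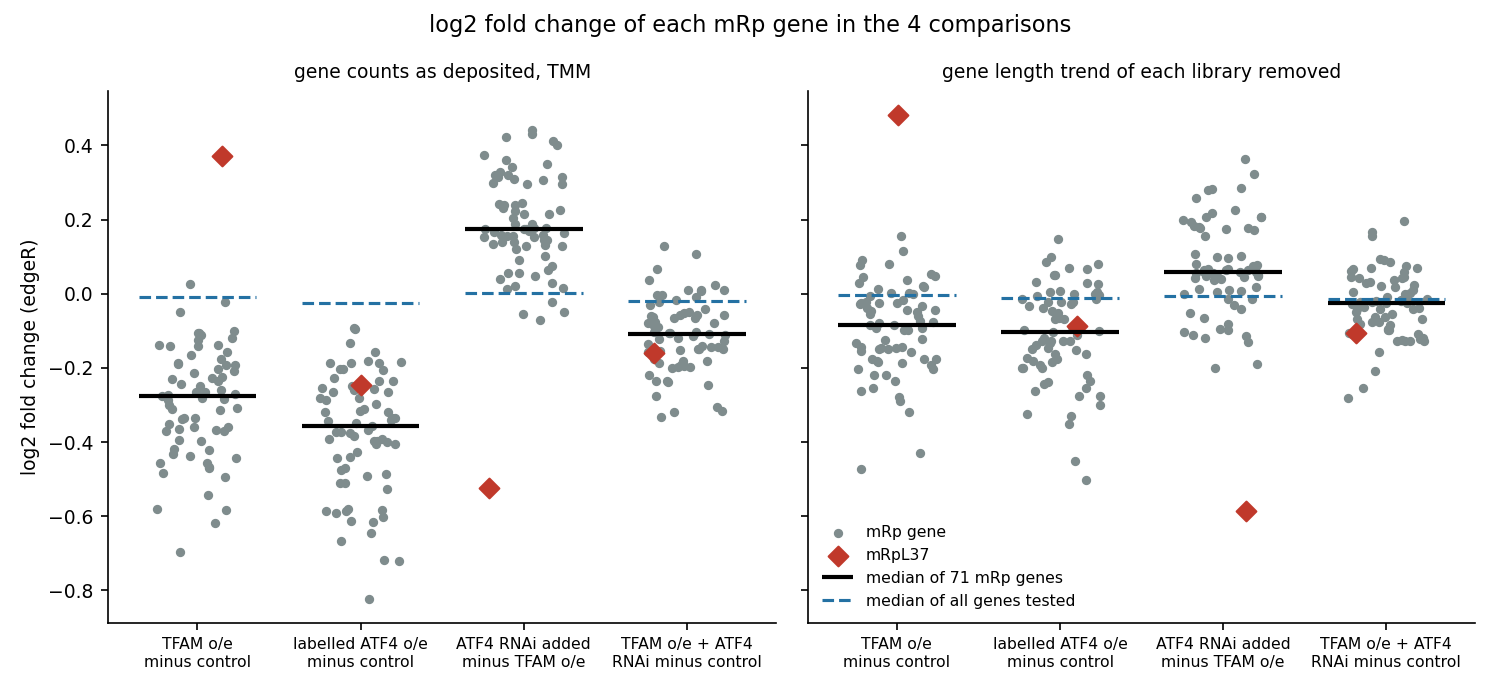
Log2 fold change of each of 71 mRp genes from edgeR in the 4 comparisons, with counts as deposited (left) and with each library's trend over gene length removed (right). Black lines are the medians of the mRp genes and dashed blue lines those of all genes tested. The medians of -0.28, -0.36, 0.18 and -0.11 on the left shrink to -0.08, -0.10, 0.06 and -0.02 on the right, where mRpL37 (red) stays apart in 2 comparisons.

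mRpL37 (FBgn0261380, 3R from 10782563 to 10784092, minus strand, 1356 exon bases) had the highest fold change of the 71 genes in TFAM overexpression against control and the lowest when ATF4 RNAi was added. It encodes a mitochondria-specific protein of the large subunit and shares no exon bases with another gene. The gene is named here because tables of the study list it among genes that changed in these samples, so its values are not independent evidence of a change. It had 42.1, 43.6, 62.9 and 53.0 CPM in control and 64.2, 83.7, 63.4 and 52.5 CPM in TFAM overexpression. It had 42.8, 42.8, 48.1 and 50.5 CPM with ATF4 RNAi added and 35.8, 47.6, 43.2 and 44.0 CPM in libraries labelled ATF4 overexpression. All 4 TFAM overexpression libraries lay above all 4 with ATF4 RNAi added, whereas TFAM overexpression and control overlapped through control replicates 3 and 4 and TFAM overexpression replicate 4.

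The mean was 65.9 ± 13.0 CPM in TFAM overexpression, 50.4 ± 9.66 in control and 46.1 ± 3.88 with ATF4 RNAi added (SD, n = 4). From control to TFAM overexpression edgeR gave a log2 fold change of 0.37 (SE 0.17, adjusted p = 0.880), and from TFAM overexpression to TFAM overexpression with ATF4 RNAi it was -0.52 (SE 0.13, adjusted p = 0.198). For the latter the difference in CPM gave p = 0.0286 in a two-sided exact permutation test, the smallest that 4 libraries against 4 allow. For the former the same test did not give a p under 0.05. Over 9 alternatives its p lay between 0.0571 and 0.2. With the gene length trend removed, both differences passed the threshold: mRpL37 was 0.48 higher on the log2 scale in TFAM overexpression than in control (SE 0.08, adjusted p = 0.0365) and 0.59 lower with ATF4 RNAi added (log2 fold change -0.59, SE 0.08, adjusted p = 0.00503). DESeq2 called the second difference with no length correction (log2 fold change -0.52, adjusted p = 0.0276). Over 18 alternatives the adjusted p lay between 0.0154 and 0.998 for the first difference and between 0.00195 and 0.482 for the second.

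Neither remaining comparison showed a difference of this size. mRpL37 was at -0.16 (SE 0.14, adjusted p = 1.00) between control and TFAM overexpression with ATF4 RNAi and at -0.25 (SE 0.15, adjusted p = 0.530) between control and libraries labelled ATF4 overexpression. With the gene length trend removed these were -0.11 and -0.09. A joint test of any difference between the 4 genotypes called 0 of 71 mRp genes (background 2.68%), with mRpL37 the only one at an unadjusted p under 0.05 (background 10.9%, adjusted p of mRpL37 = 0.0801). It called mRpL37 with the length trend removed (adjusted p = 0.000175, background 4.3%), as did DESeq2's likelihood ratio test, which called 1 of 71 (background 4.31%).

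The level of mRpL37 was also set against that of the other mRp genes of the same library. mRpL37 swung less than most of them, 1.36-fold in control replicate 3 where the median was 1.88-fold. The ratio still carries part of the difference between libraries, being the lowest of its genotype in control replicate 3, TFAM overexpression replicate 2 and replicate 4 of the ATF4 RNAi genotype. It was chosen after seeing the data and is given as a description. mRpL37 divided by the geometric mean of the other 70 genes was 1.69, 1.48, 1.14 and 1.56 in control, 2.57, 2.02, 2.34 and 2.05 in TFAM overexpression, 1.63, 1.36, 1.34 and 1.18 with ATF4 RNAi added and 1.49, 1.55, 1.67 and 1.42 in the libraries labelled ATF4 overexpression. Every TFAM overexpression library lay above all 12 others. The ratio of TFAM overexpression to control was 1.53-fold and that of TFAM overexpression with ATF4 RNAi to TFAM overexpression 0.613-fold. On the log2 scale these are 0.61 and -0.71, and the next gene in each direction was mRpL28 at 0.26 and mRpS18B at -0.26. Against the 20 other genes of at least 1000 exon bases, which swing less, the ratio was between 1.35 and 1.75 in TFAM overexpression and between 0.886 and 1.19 in the other 12 libraries.

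**Figure D5:**
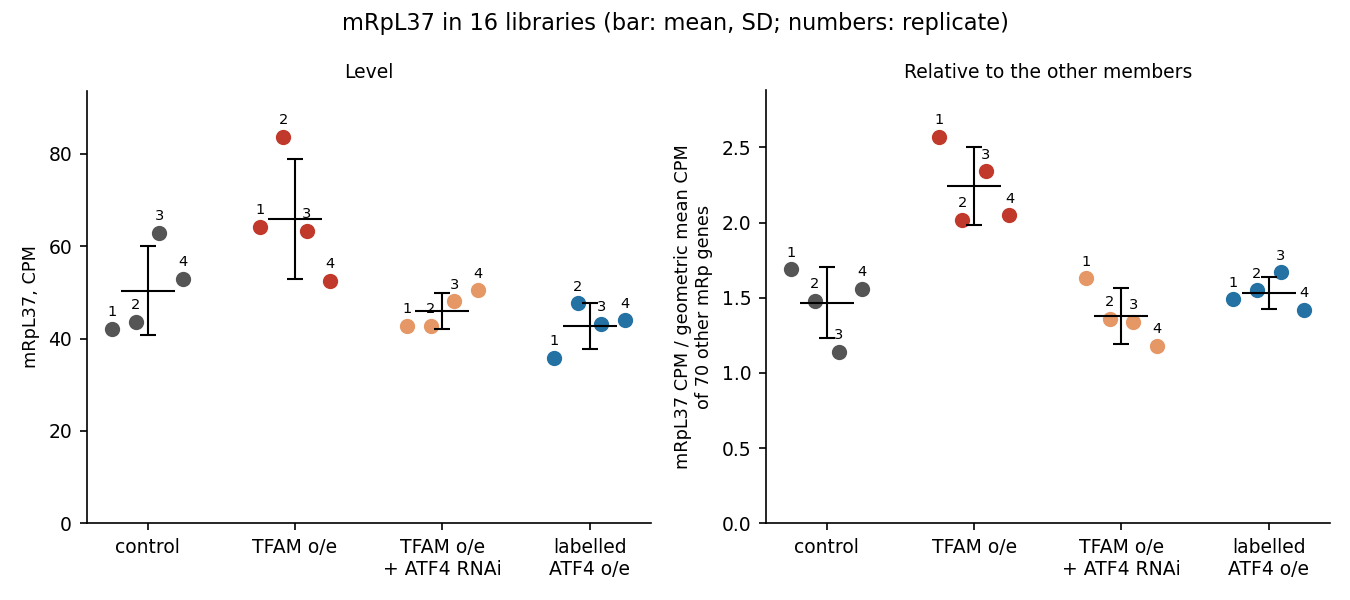
Level of mRpL37 in CPM (left) and its ratio to the geometric mean of the 70 other mRp genes in the same library (right), by genotype. Points are libraries with their replicate number, and bars are the mean and SD of 4. On the right the 4 TFAM overexpression libraries, at 2.02 to 2.57, lie above the other 12, at 1.14 to 1.69.

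The remaining genes of mitochondrial gene expression were examined from lists of known roles. Of the mitochondrial ribosomal proteins with other symbols, tko, which encodes the decoding-center protein S12, had 24.1, 29.5, 59.0 and 31.0 CPM in control and 24.3, 44.9, 28.8 and 27.0 CPM in TFAM overexpression. It thus shared the high libraries of the mRp genes despite 1596 exon bases, and was at -0.22 between them (SE 0.30, adjusted p = 0.880). bonsai, which encodes protein S15, had 34.1, 37, 50.8 and 40.1 CPM in control and 35.4, 39.6, 34.5 and 31.4 CPM in TFAM overexpression (-0.22 on the log2 scale, SE 0.14, adjusted p = 0.880). Neither was called in any comparison.

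None of 9 mitochondrial translation factors, 16 mitochondrial aminoacyl-tRNA synthetases and 6 regulators of nuclear genes for mitochondria was called in any of the 4 comparisons. The translation factors, which bring tRNAs to the ribosome and move it along the message, had medians of -0.01, -0.07, 0.00 and -0.02, near those of all genes. The synthetases, which charge mitochondrial tRNAs, had medians of -0.07, -0.20, 0.02 and -0.06, and 4 of 16 were lower at an unadjusted p under 0.05 in libraries with the ATF4 overexpression label, where 563 of all 9410 genes tested were. Of 8 genes for mitochondrial transcription and RNA maintenance, 7 were tested, since mtTFB1 had 0 counts in all 16 libraries. The 0 of mtTFB1 is not read here as absence of expression, since its exon overlaps were not examined. TFAM alone was called, between control and each of the genotypes with UAS-TFAM3M. Its log2 fold changes were 2.46 (SE 0.25, adjusted p = 0.00341) and 2.46 (SE 0.24, adjusted p = 0.00184).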

How the data were processed

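The members, gene lists and tests were chosen with earlier results of these data known. PolyA libraries (TruSeq Stranded mRNA kit) of 16 CNS pools were read as 75-bp single-end reads. The authors mapped them to dm6 with Bowtie2 2.3.4.2 and deposited raw counts per gene from featureCounts 1.6.3, without normalization (versions from the submitters' processing notes). The annotation and strand setting used are not given in the sources used here. Identifiers were matched to Ensembl release 115 of BDGP6 (17560 of 17698 had a symbol), which gave coordinates and exon lengths. Pairs of genotypes were tested in R 4.3.3 with edgeR 4.0.16 (TMM, filterByExpr, quasi-likelihood test, 8 libraries per fit), with adjustment over all genes tested. Labels gave the genotypes. CPM used TMM factors over 16 libraries. The length trend was removed by a loess fit (span 0.5) of each library on log2 exon length, used as an offset. DESeq2 1.42.0, other filters and thresholds, a replicate block and leaving out libraries were alternatives. No replicate pair was within sampling noise (chi-square per degree of freedom of 8.64 or more). P-values set a difference between genotypes against the spread between these pools.

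Genes named with values are those called, the 2 highest and 2 lowest fold changes per comparison, the 3 highest and 3 lowest levels per subunit, members not tested, the extremes of spread, tko, bonsai, TFAM, crc, called list genes and mRpL37. Those with an unadjusted p under 0.05, mRpL21, CG33155 and genes near mRpL37 were named after their values were seen. Scripts were tested on simulated data.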

Additional observations from a re-analysis of the deposited data

Results flagged for a closer look

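In these results 1 library lay far from the other 3 of its genotype, by Dixon's criterion at 95%, which by chance marks about 1 in 20 groups. Among all 71 mRp genes in 4 genotypes it marked 43 of 284 combinations (15.1%), 8 of them for control replicate 3. The genes share their libraries and rose and fell together. The combinations are therefore not independent, and their share cannot be judged against 1 in 20. TFAM overexpression replicate 2 was marked for the share of counts on mRp genes (0.306%) and for its gene length slope (-0.186), and for 5 genes named above or among the highest in level, namely mRpL30 (101 CPM), mRpL27 (58.9 CPM), mRpL12 (55.3 CPM), mRpL20 (30.4 CPM) and mRpS21 (24.1 CPM). Control replicate 3 was marked for mRpL27 (114 CPM) and mRpS21 (42.1 CPM). Control replicate 4 was marked for mRpS30 (103 CPM), a gene that control replicate 3 left at the level of the other controls.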

How the results depend on the processing

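The count of mRp genes called was 0 under all alternatives in the comparisons of control with the libraries labelled ATF4 overexpression and with TFAM overexpression with ATF4 RNAi. Between control and TFAM overexpression it was 1 (mRpL37) with the length trend offset and 1 with the length slope as a covariate. Between TFAM overexpression and TFAM overexpression with ATF4 RNAi it was 1 (mRpL37) by DESeq2 without and 1 with a prior, 1 with the offset and 2 (mRpL20 and mRpL37) with the covariate, where 56 genes of 9436 rose and 93 fell. The joint test gave 1 by DESeq2's likelihood ratio test, 1 with the offset and 2 (mRpL34 and mRpL37) with the covariate, and between 0 and 1 on leaving out single libraries, with mRpL37 called without control replicate 3 or without TFAM overexpression replicate 4. The cause was not tested.

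Medians over the mRp genes ranged over all alternatives from -0.42 to 0.02, from -0.48 to -0.01, from 0.06 to 0.35 and from -0.25 to 0.17, in the order of the comparisons in the report. The replicate numbers were not taken to pair the libraries, since same-numbered libraries deviated together (r above 0.1) for only 2, 1, 1 and 3 of 4 numbers. Libraries numbered 1 did so in all 4 comparisons, at r between 0.508 and 0.615, so structure shared by that number is not excluded. With a replicate block 0 mRp genes were called in every comparison, so that no call changed, and the medians were -0.25, -0.30, 0.19 and -0.06.

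Fold changes of uncalled genes changed sign as follows, on the log2 scale. With the covariate, mRpS21 was at 0.038 between control and TFAM overexpression, and mRpL27 at 0.141, mRpS17 at 0.096 and mRpL36 at 0.006 between control and libraries labelled ATF4 overexpression. With the offset, mRpL19 was at 0.081 and mRpS17 at 0.147 in the latter comparison. On leaving out single libraries, the value between control and TFAM overexpression ran from -1.183 to 0.252 for mRpS21, from -1.170 to 0.139 for mRpL27 (both highest without control replicate 3) and from -0.038 to 0.103 for mRpL28 (negative without control replicate 1, control replicate 2 or TFAM overexpression replicate 2). Against libraries labelled ATF4 overexpression it ran from -1.067 to 0.014 for mRpL27 and from -0.163 to 0.061 for mRpS17, again highest without control replicate 3. For mRpS18B it ran from -0.109 to 0.032 when ATF4 RNAi was added (highest without TFAM overexpression replicate 2). Between control and TFAM overexpression with ATF4 RNAi it ran from -0.507 to 0.107 for mRpL14 (highest without control replicate 3) and from -0.037 to 0.321 for mRpL20 (lowest without control replicate 1). The permutation p of mRpL37 in CPM rose to 0.0571 when a library of the ATF4 RNAi genotype was left out, and stayed at 0.0286 when a TFAM overexpression library was. The spread between libraries, not their depth of at least 103 counts per gene, limits what these values resolve.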

Other observations

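Genes near mRpL37 were examined after its values were seen. CG42633 lies 295 bases beyond mRpL37 on the same strand (3R from 10780965 to 10782267), and had low counts that moved as mRpL37 did. It had 13, 9, 8 and 5 counts in control, 31, 22, 29 and 16 in TFAM overexpression, 7, 13, 9 and 11 with ATF4 RNAi added and 10, 5, 9 and 7 in the libraries labelled ATF4 overexpression. Every TFAM overexpression library held more counts of CG42633 than all 12 others. edgeR gave log2 fold changes of 1.34 (standard error 0.34, adjusted p = 0.315) from control to TFAM overexpression and -1.29 (standard error 0.30, adjusted p = 0.163) when ATF4 RNAi was added, so neither passed the threshold among all genes.

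Art1, an arginine methyltransferase gene 2388 bases from mRpL37, was at -0.19 (standard error 0.18, adjusted p = 0.880 from edgeR) in the first of these comparisons and 0.10 (standard error 0.14, adjusted p = 0.989) in the second. Desi, beyond CG42633, had at most 0.301 CPM in any library and was not tested. Whether the counts of CG42633 come from transcripts of its own or of mRpL37 was not tested.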
